A study of Homo sapiens with 5 samples.

Results

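ABC transporters are membrane proteins that bind ATP through a conserved pair of nucleotide-binding domains and use its hydrolysis to move substrates across a membrane. Human members fall into subfamilies A to G. Several export drugs from the cell, others move cholesterol, phospholipids or bile salts, and others serve peroxisomes, mitochondria or lysosomes. Members of subfamilies E and F have no membrane-spanning part and act on ribosomes. Efflux members such as ABCB1, ABCG2 and ABCC1 are widely studied in breast cancer because they can lower the amount of a cytotoxic drug inside the cell.

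The members were the genes whose symbol is ABCA to ABCG followed by a digit, with pseudogenes left out, and each gene was read from the brightest probe set that the platform annotation assigns to that gene alone. Of the 45 members listed by role, 41 had such a probe set, among 19775 genes tested in all. The others were not analysed here. The cells were MDA-MB-231, an established human breast cancer line with a mesenchymal form. SAHA (suberoylanilide hydroxamic acid, vorinostat) is an inhibitor of zinc-dependent histone deacetylases, and the study compared 2 arrays of cells given SAHA at 2 uM for 30 h with 3 arrays of cells given the solvent DMSO for 30 h. Both groups were the same unmodified line by the labels, which name no genotype and no further agent, although the shared extraction text speaks of a transfection that no array's own label mentions. Nothing in the labels says that the arrays of a group came from separate cultures, so a p-value here speaks only of how far these arrays scatter, and part or all of that scatter may be technical.

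Values are log2 of the deposited intensity, a difference is SAHA minus DMSO, and a gene is called where limma's adjusted p is under 0.05. Each array held 54675 probe sets, and the median log2 intensity over its probe sets was 6.47 to 6.51. The ACTB probe sets, a sign of RNA quality, differed between the 3′ and 5′ ends by 3.29 on DMSO replicate 1 and by 2.04 to 2.22 on the other 4 arrays. Arrays of a group correlated at r = 0.9972 to 0.9986 and arrays of different groups at r = 0.9791 to 0.9801 across genes, each read from 1 probe set. Of the markers that are high in this line, VIM, CD44, FN1 and AXL lay between 12.59 and 14.03 in DMSO cells, while SPARC lay at 6.13 to 6.14, below the array median. Of the markers that are low in this line, CDH1 and PGR lay below the array median in DMSO cells, ESR1, CLDN3 and CLDN4 lay above it, and EPCAM lay at 10.19 to 10.42, which goes against the list. PTPRC and ALB, markers of blood and liver cells, lay below the array median on all 5 arrays, and the endothelial marker PECAM1 lay at 7.41 to 7.67. Some markers moved with SAHA: CDH1 and FN1 rose by 1.64 and 0.41, and EPCAM, AXL and PTPRC fell by 0.72, 0.33 and 0.34 (limma, adjusted p = 0.00259, 0.00617, 0.0102, 0.0193 and 0.0176). Their part in the results was not tested. The poly-A controls added to the RNA were brighter on the SAHA arrays in 24 of 24 cases, by a median of 0.39, and their part in the results was not tested beyond the rescaled values given with the counts.

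SAHA-treated cells had more ABCB1, ABCB4, ABCG1, ABCA7, ABCA5 and ABCD3 mRNA and less ABCB10, ABCC3, ABCG2, ABCC4, ABCE1 and ABCD4 mRNA than DMSO-treated cells. Thus 6 of the 41 members rose and 6 fell in limma's fit, and the other 29 were not called. The 12 called members are 29.3% of the family, beside 29.6% of all genes tested, so the family's share of called genes was near the background. All genes tested were called higher in 14.0% and lower in 15.6% of cases. The median difference of the members was -0.05, beside -0.03 over all genes, and lay between -0.060 and -0.0099 with 1 array left out (the latter without DMSO replicate 3), and the members ranged from -1.46 for ABCB10 to 1.98 for ABCG1. ABCB1, ABCB4, ABCG1, ABCD3, ABCB10 and ABCC3 were called and differed by at least 2-fold, which is 14.6% of the members beside 5.75% of all genes. The groups did not overlap in 25 members, 12 of them higher and 13 lower, and the groups overlapped or touched in 16. That is 61% of the members, and the same held for 48.1% of all genes.

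The counts of calls depended on how the arrays were scaled and on single arrays. With the arrays centred on the poly-A controls, 4 members were called higher and 28 lower, and all genes shifted in the same direction, with a median of -0.40, 1361 genes higher and 14548 lower. On that scale ABCG2, ABCC4, ABCE1 and ABCD4 differed by -0.84, -0.83, -0.78 and -0.75, and ABCD3 by 0.64. With DMSO replicate 1, 2 or 3 left out, the members called higher numbered 3, 3 and 4 and those called lower 3, 2 and 1. That is 14.6%, 12.2% and 12.2% of the members. All genes were called less often in those fits as well, in 22.4%, 20.5% and 19% of cases. ABCB1, ABCG1 and ABCA7 kept their call without any 1 of the 5 arrays, and each of the other called members lost it without at least 1 array. The probe sets in these fits were those chosen on all 5 arrays. For ABCG1 that choice rested on its SAHA values, so its kept call is no separate check.

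**Figure D1:**
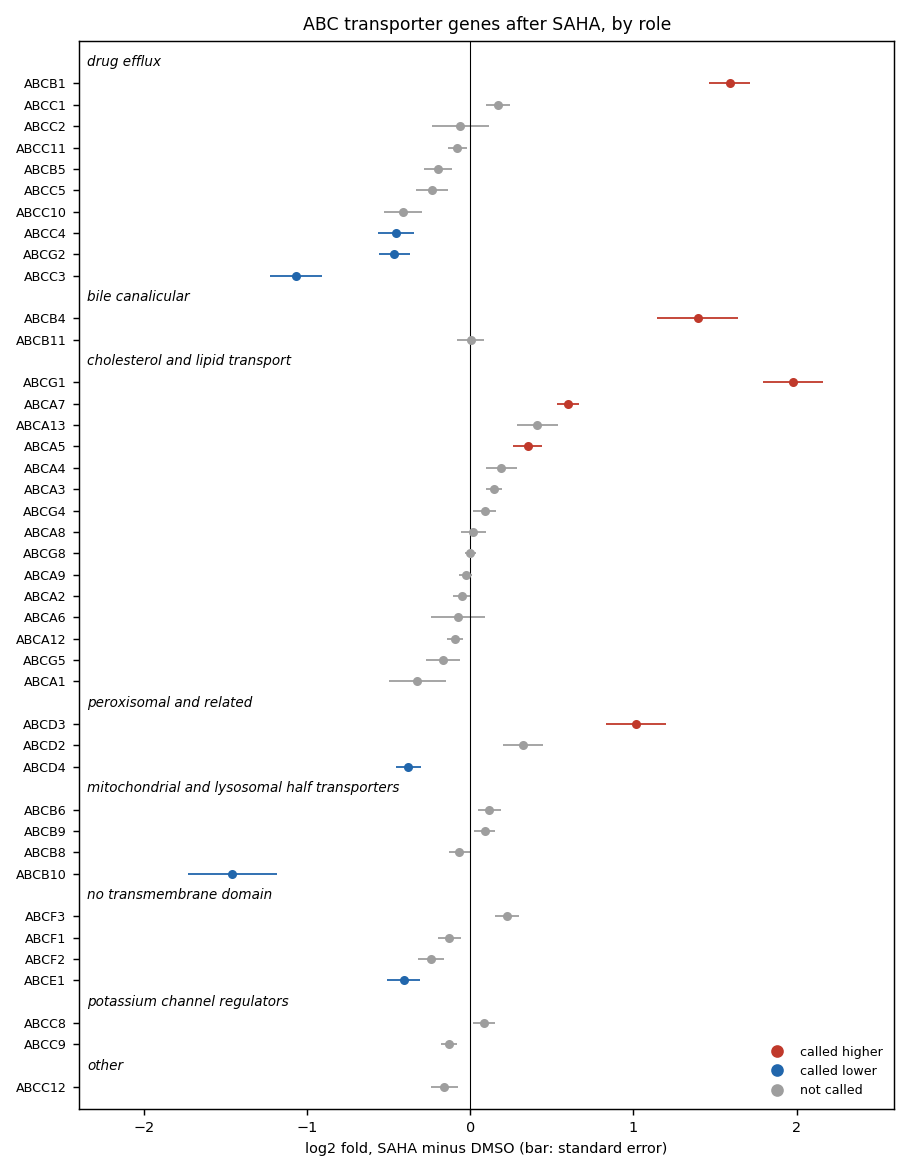
Log2 difference (SAHA minus DMSO, horizontal axis) of each of the 41 measured members, grouped by role. Points are limma estimates, bars are standard errors, and colour marks the 6 members called higher and the 6 called lower. The drug efflux group holds ABCB1 at 1.59 on one side and ABCC3 at -1.07 on the other.

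Members were not equally well lit. In DMSO cells 23 members lay above the array median on every array, and 9 of them (39.1%) were called, beside 41.5% of all genes at that level. Another 17 members lay below it on every DMSO array, and of those only ABCB1 and ABCB4 were called (11.8%), beside 7.47% of genes at that level. ABCG1 lay on both sides of the median in DMSO cells. All 6 members that fell were in the brighter class, as were 2944 of the 3089 genes called lower among all genes. Brightness was set only against the array median, since probe sets of different genes do not share a scale. For ABCG8 the deposited value was the same, 6.46, on all 5 arrays, and 7 members in all had equal values on at least 2 arrays of a group. The same held for 6188 of the 19775 genes tested. With such genes left out, 14 of 34 members were called (41.2%), beside 47.9% of all genes.

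The promoter windows of the called members that differed by at least 0.5 on the log2 scale are shown because both directions of change occur among them. Of the 41 members 33, and of the 12 called members 9, had a window in the RefSeq promoter table (build GRCh38.p14), and ABCB4, ABCG1 and ABCC3 are named only. Each line gives the 250 bases before an annotated transcription start, 5′ to 3′ on the gene's strand, in lower case. Capitals mark CCAAT or its reverse complement ATTGG, the core of the box bound by the NF-Y factor, and GGGCGG or its reverse complement CCGCCC, the GC box bound by SP1-type factors. In the windows shown no match of one motif overlaps a match of the other. ABCB1, which rose, has an annotated start with the window chr7:87600885-87601134 on the minus strand, and a further one upstream with the window chr7:87713296-87713545. ABCA7 and ABCD3, which also rose, have the windows chr19:1039857-1040106 and chr1:94418139-94418388 on the plus strand. ABCB10, which fell, has the window chr1:229558708-229558957 on the minus strand.
ABCB1: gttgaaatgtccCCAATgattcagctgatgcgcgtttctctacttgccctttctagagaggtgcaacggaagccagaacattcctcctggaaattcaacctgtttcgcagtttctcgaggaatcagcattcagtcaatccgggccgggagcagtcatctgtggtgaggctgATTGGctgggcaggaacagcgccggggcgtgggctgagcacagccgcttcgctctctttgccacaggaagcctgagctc
ABCB1, upstream start: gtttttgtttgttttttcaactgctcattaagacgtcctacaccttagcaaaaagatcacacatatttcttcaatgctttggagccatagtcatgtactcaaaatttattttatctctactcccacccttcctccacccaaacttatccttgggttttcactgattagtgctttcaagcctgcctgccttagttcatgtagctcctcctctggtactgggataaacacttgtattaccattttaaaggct
ABCA7: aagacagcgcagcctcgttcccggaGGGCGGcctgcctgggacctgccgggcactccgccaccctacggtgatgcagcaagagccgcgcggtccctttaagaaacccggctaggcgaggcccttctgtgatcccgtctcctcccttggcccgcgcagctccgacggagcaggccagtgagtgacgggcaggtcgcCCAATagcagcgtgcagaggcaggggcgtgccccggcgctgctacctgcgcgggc
ABCD3: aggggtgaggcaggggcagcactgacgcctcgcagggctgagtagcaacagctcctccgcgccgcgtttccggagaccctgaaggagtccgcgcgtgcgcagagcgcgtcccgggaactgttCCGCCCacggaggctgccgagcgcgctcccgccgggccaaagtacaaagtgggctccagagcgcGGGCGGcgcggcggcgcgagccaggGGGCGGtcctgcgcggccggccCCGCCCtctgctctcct
ABCB10: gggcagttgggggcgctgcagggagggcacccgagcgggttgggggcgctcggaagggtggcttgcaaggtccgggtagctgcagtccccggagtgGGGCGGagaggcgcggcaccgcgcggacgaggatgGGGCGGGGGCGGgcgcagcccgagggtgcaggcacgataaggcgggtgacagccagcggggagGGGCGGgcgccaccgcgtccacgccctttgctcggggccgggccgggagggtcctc

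The first ABCB1 window holds CCAAT 238 bases and ATTGG 79 bases before the start and no GC box, and the upstream window holds neither motif. The ABCA7 window holds CCAAT 55 bases and GGGCGG 225 bases before the start. The windows of ABCD3, which rose, and ABCB10, which fell, hold 4 GC boxes each and no CCAAT. On either strand the CCAAT motif is in 32% of all 35116 windows of the table and in 20.4% of the 49 windows of members, and the GC box is in 42.6% and 51%. A match gives only the letters of the window. No binding was measured here.

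Drug efflux members moved both ways. ABCB1 rose, while ABCC3, ABCC4 and ABCG2 fell, so 4 of the 10 measured efflux members were called (40%), beside 29.6% of all genes. The other 6 were ABCB5, ABCC1, ABCC2, ABCC5, ABCC10 and ABCC11. Most of the 10 lay above the array median in DMSO cells, a level at which 41.5% of all genes were called. ABCB1, ABCC2 and ABCC11 lay below it. The group's median difference was -0.22, beside -0.03 for all genes, and 8 of its 10 members lay below 0. In 8 of the 10 both SAHA arrays lay on the same side of all DMSO arrays, higher for ABCB1 and ABCC1 and lower for the rest of them. The same held for 48.1% of all genes and for 63.3% of those above the array median in DMSO cells. The count of 4 called fell to 3 without DMSO replicate 1 or 2 and to 2 without DMSO replicate 3. Those fits called 22.4%, 20.5% and 19% of all genes. With the poly-A controls as reference the count was 9, where 80.5% of all genes were called.

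ABCB1 encodes P-glycoprotein, a broad-range exporter of hydrophobic drugs. Its log2 level was 4.91, 5.19 and 4.88 on the DMSO arrays and 6.68 and 6.48 on the SAHA arrays. The lowest SAHA array was well above the highest DMSO array, and the DMSO level lay below the array median. ABCB1 rose by 1.59 ± 0.13 (SE, limma, adjusted p = 0.00170), or 3.01-fold, from 4.99 ± 0.17 (SD, n = 3) to 6.58 ± 0.14 (SD, n = 2). It stayed called in all 17 alternatives except the one that left it out as a dim gene. Its second probe set, at 4.30 to 4.37 on the DMSO arrays, differed by 0.12 and was not called, and the mean of both differed by 0.85 and was called.

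ABCC3 encodes an exporter of organic anions and glucuronide conjugates. Its level was 9.78, 9.44 and 9.29 on the DMSO arrays and 8.50 and 8.37 on the SAHA arrays, without overlap. ABCC3 fell by 1.07 ± 0.16 (SE, limma, adjusted p = 0.00928), or 2.10-fold. It was no longer called without SAHA replicate 1 (adjusted p = 0.0780) or SAHA replicate 2 (adjusted p = 0.0836). With probe sets of shared sequence left out it was read from a dimmer probe set and the difference was -0.10 (limma, adjusted p = 0.292), and the mean of its 5 probe sets differed by -0.47 and was called.

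ABCG2, the breast cancer resistance protein, exports a range of drugs and porphyrins. Its level was 9.05, 8.78 and 8.84 on the DMSO arrays and 8.46 and 8.39 on the SAHA arrays. The groups did not overlap, and the gap between them was of the size of the spread within DMSO. ABCG2 fell by 0.47 ± 0.10 (SE, limma, adjusted p = 0.0240). The call was lost without DMSO replicate 3 (adjusted p = 0.0856), SAHA replicate 1 (adjusted p = 0.117) or SAHA replicate 2 (adjusted p = 0.134), and under array weights (adjusted p = 0.0505).

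ABCC4 exports cyclic nucleotides, prostaglandins and nucleoside drugs. Its level was 9.04, 8.98 and 9.09 on the DMSO arrays and 8.74 and 8.41 on the SAHA arrays. The groups did not overlap, the DMSO arrays were close together and the SAHA arrays lay further apart. ABCC4 fell by 0.46 ± 0.11 (SE, limma, adjusted p = 0.0379), a call lost without DMSO replicate 1, 2 or 3 (adjusted p = 0.124, 0.109 and 0.141) or SAHA replicate 2 (adjusted p = 0.0604), where the difference was -0.30. The mean of its 4 probe sets differed by -0.18 and was not called (limma, adjusted p = 0.0557).

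Among the efflux members not called, ABCC1, an exporter of glutathione conjugates and anthracyclines, read 10.91, 10.72 and 10.91 in DMSO and 11.00 and 11.02 in SAHA. Its difference was 0.17 with a 95% interval from -0.03 to 0.36 (limma, adjusted p = 0.187), and it was 0.10 without DMSO replicate 2 and turned to -0.20 with the poly-A controls as reference. Its second probe set differed by 0.42 and was called in the fit over probe sets (limma, adjusted p = 0.0234), and the mean of both was called as well at 0.30 (limma, adjusted p = 0.0174).

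ABCC10, which transports taxanes and conjugated anions, read 10.07, 9.70 and 9.85 in DMSO and 9.44 and 9.48 in SAHA. Both SAHA arrays were below all DMSO arrays, and the difference of -0.41 missed the threshold (limma, adjusted p = 0.0616). Its 95% interval ran from -0.72 to -0.10. ABCC10 was called lower in 7 of the alternatives, for example after a further quantile normalization (limma, adjusted p = 0.0386).

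ABCC5, an exporter of cyclic nucleotides and nucleotide analogues, read 9.53, 9.24 and 9.35 in DMSO cells, then 9.13 and 9.15 in SAHA. The groups were apart but close, and the difference was -0.23 with a 95% interval from -0.49 to 0.02 (limma, adjusted p = 0.161). ABCB5, a relative of P-glycoprotein known from melanoma, read 6.77, 6.64 and 6.73 in DMSO and 6.41 and 6.62 in SAHA. Its difference was -0.20, with an interval from -0.42 to 0.02 (limma, adjusted p = 0.167). It was -0.093 without SAHA replicate 1 and -0.30 without SAHA replicate 2, and that of ABCC5 was -0.15 without DMSO replicate 1.

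ABCC2, the canalicular exporter of conjugated anions, read 5.60, 5.72 and 5.88 in DMSO cells, then 5.42 and 5.92 in SAHA. The SAHA arrays lay on both sides of the DMSO arrays, and the interval of the difference, from -0.53 to 0.40, is wide. ABCC11, which exports lipophilic anions and is known for setting earwax type, read 5.94, 5.94 and 6.06 in DMSO and 5.86 and 5.94 in SAHA, with shared values between the groups. Its difference was -0.08, with an interval from -0.23 to 0.08. Neither difference was called by limma, at adjusted p = 0.833 for ABCC2 and 0.388 for ABCC11.

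**Figure D2:**
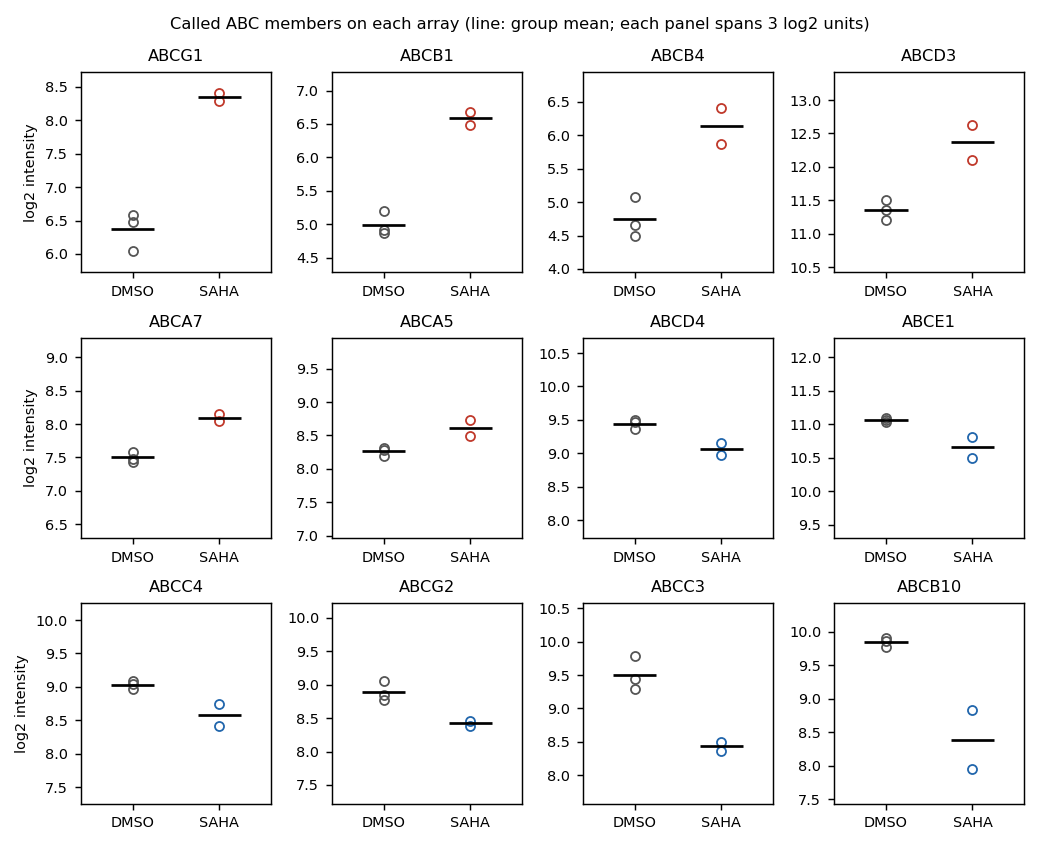
Log2 intensity (vertical axis) of the 12 called members on each array, 1 panel per member, with 3 DMSO and 2 SAHA points and a bar at each group mean. ABCB1, ABCG1 and ABCA7 show wide gaps against the spread within groups, and the SAHA points of ABCB10 stand apart at 8.83 and 7.94. The ABCG1 probe set was the brightest only through its SAHA values.

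ABCB4 and ABCB11 serve the bile canaliculus in liver, where ABCB4 flips phosphatidylcholine and ABCB11 pumps bile salts. ABCB4 read 4.65, 4.49 and 5.08 on the DMSO arrays and 5.87 and 6.40 on the SAHA arrays, with no overlap. ABCB4 rose by 1.39 ± 0.25 (SE, limma, adjusted p = 0.0155), or 2.63-fold, from a level below the array median. The call was lost without DMSO replicate 1 (adjusted p = 0.0725), DMSO replicate 2 (adjusted p = 0.0663), SAHA replicate 1 (adjusted p = 0.0588) or SAHA replicate 2 (adjusted p = 0.0956), and without probe sets of shared sequence, where it read 0.35 (limma, adjusted p = 0.102). On the DMSO arrays its 2 probe sets were about equally bright, with means of 4.74 and 4.72, and the one not chosen was brighter on DMSO replicates 1 and 2. The choice between them thus rested largely on the SAHA arrays, so the size of the rise depends on that choice. The mean of its probe sets differed by 0.87 and was called. ABCB11 differed by less than 0.01 and was not called.

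ABCB4 and ABCB1 are neighbours on chromosome 7 in the RefSeq gene order, and both rose. They are close paralogs, the annotation assigns a further probe set to both, and whether the chosen probe sets pick up each other's transcripts was not tested. Among the members 5 pairs of neighbours occur, and in the other 4, which are ABCC12 with ABCC11, ABCA8 with ABCA9, ABCA9 with ABCA6 and ABCG5 with ABCG8, no gene was called. All genes of the 5 pairs lay below the array median in DMSO cells, a level at which only 7.47% of all genes were called.

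Of the 15 measured cholesterol and lipid transporters, 3 rose, none fell and 12 were not called, a share of 20% beside 29.6% of all genes. The median difference of the group was 0.02. The 3 that rose were ABCG1, ABCA7 and ABCA5.

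ABCG1 moves cholesterol to lipoprotein particles and is a known target of the liver X receptors. It read 6.59, 6.48 and 6.04 on the DMSO arrays and 8.41 and 8.29 on the SAHA arrays. ABCG1 rose by 1.98 ± 0.18 (SE, limma, adjusted p = 0.00246), or 3.94-fold. This probe set was the brightest over all arrays only through the SAHA arrays: on the DMSO arrays another was brighter, with a mean of 6.51 against 6.37, and that one differed by 0.65 and was not called (limma over probe sets, adjusted p = 0.134), so the choice of probe set used the difference itself. All 4 of its probe sets were positive, from 0.61 to 1.98, and 2 were called. The mean of the 4 differed by 0.98 and was called, and without probe sets of shared sequence its reading was 0.61 and was not called (limma, adjusted p = 0.0818).

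ABCA7, a transporter of phospholipids known from Alzheimer disease genetics, read 7.44, 7.59 and 7.47 in DMSO and 8.04 and 8.15 in SAHA. Both groups were tight, and ABCA7 rose by 0.60 ± 0.07 (SE, limma, adjusted p = 0.00415). Centred on the poly-A controls it differed by 0.22 and was not called (limma, adjusted p = 0.0972). ABCA5, an endosomal and lysosomal member, rose by 0.35 ± 0.09 (SE, limma, adjusted p = 0.0421), and its difference was -0.02 with the poly-A controls as reference. The ABCA5 call was lost without DMSO replicate 1, 2 or 3 (adjusted p = 0.105, 0.139 and 0.131) or SAHA replicate 1 (adjusted p = 0.109).

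ABCA1, which loads cholesterol onto apolipoprotein A-I and shares its receptor control with ABCG1, was not called. It read 10.84, 10.98 and 10.85 in DMSO and 10.84 and 10.29 in SAHA, so 1 SAHA array was level with the lowest DMSO array and the other lay below. Its difference was -0.32 with a 95% interval from -0.79 to 0.14, and all 4 of its probe sets lay below 0. The other members of the group not called ranged from -0.17 for ABCG5 to 0.41 for ABCA13, whose probe set was dim at 2.79 to 3.14 in DMSO.

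The 3 measured members of subfamily D split, with 1 higher, 1 lower and 1 not called. ABCD3, the peroxisomal membrane protein PMP70, which takes up branched-chain fatty acids and bile acid precursors, read 11.36, 11.50 and 11.21 in DMSO cells, then 12.63 and 12.11 in SAHA. The SAHA arrays were above all DMSO arrays but differed by more from each other than the DMSO arrays did. ABCD3 rose by 1.02 ± 0.18 (SE, limma, adjusted p = 0.0166), or 2.02-fold. Its second probe set rose by 1.77 and was called too (limma over probe sets, adjusted p = 0.00562). The ABCD3 call was lost without DMSO replicate 1, 2 or 3 (adjusted p = 0.0731, 0.0576 and 0.0794) or SAHA replicate 1 (adjusted p = 0.0649).

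ABCD4, a lysosomal member needed for export of vitamin B12, fell by 0.38 ± 0.08 (SE, limma, adjusted p = 0.0240). It lost the call without DMSO replicate 2 or 3 (adjusted p = 0.0985 and 0.0971) or SAHA replicate 2 (adjusted p = 0.0875). ABCD2, which handles very long-chain fatty acids in peroxisomes, differed by 0.32 from a dim level of 2.47 to 2.64 in DMSO and was not called.

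Of the 4 measured mitochondrial and lysosomal members, ABCB10 fell and ABCB6, ABCB8 and ABCB9 were not called. ABCB10 lies in the inner mitochondrial membrane and is needed for haem synthesis in red cell precursors. It read 9.86, 9.91 and 9.77 on the DMSO arrays and 8.83 and 7.94 on the SAHA arrays. Both SAHA arrays were below all DMSO arrays, and they stood further from each other than those of any other called member. ABCB10 fell by 1.46 ± 0.27 (SE, limma, adjusted p = 0.0180), or 2.75-fold. It had 1 probe set, and its call was lost without DMSO replicate 1, 2 or 3 (adjusted p = 0.0791, 0.0880 and 0.0821). ABCB6, ABCB8 and ABCB9 differed by 0.12, -0.07 and 0.09.

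ABCE1, which splits ribosomes after translation ends, fell by 0.41 ± 0.10 (SE, limma, adjusted p = 0.0442). The call was lost without DMSO replicate 1, 2 or 3 (adjusted p = 0.122, 0.146 and 0.155), and the difference was -0.25 without SAHA replicate 2. The other members without a transmembrane domain, ABCF1, ABCF2 and ABCF3, differed by -0.13, -0.24 and 0.22 and were not called, and the groups did not overlap in any of them, as in 63.3% of all genes above the array median in DMSO cells. The potassium channel regulators ABCC8 and ABCC9, which are sulfonylurea receptors, and ABCC12 were not called and differed by 0.08, -0.13 and -0.16.

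**Figure D3:**
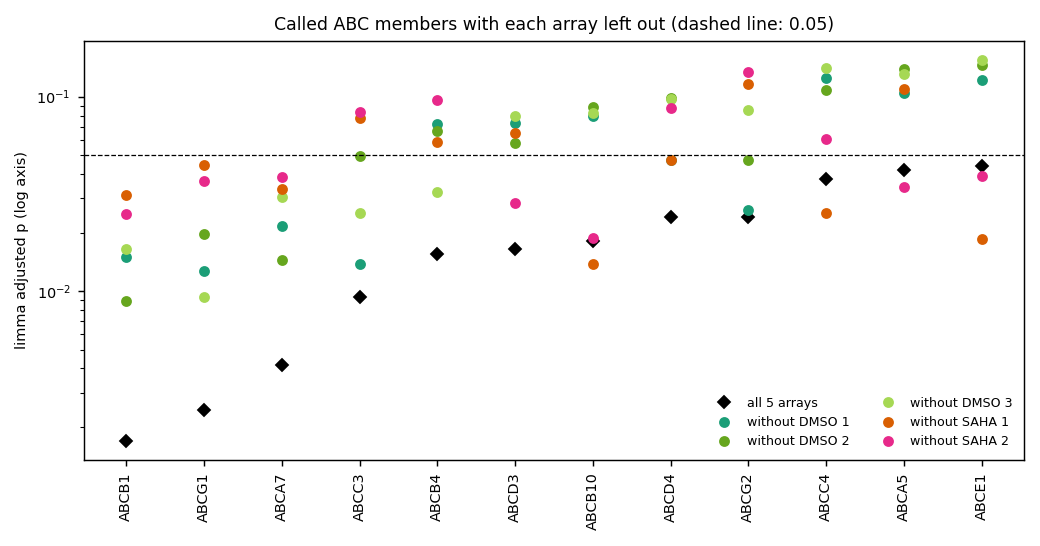
Limma's adjusted p (vertical axis, log scale) of the 12 called members with all 5 arrays (diamonds) and with each array left out in turn (circles, coloured by array). A dashed line marks 0.05, and ABCB1, ABCG1 and ABCA7 lie below it at every point. Probe sets were chosen on all 5 arrays, for ABCG1 through its SAHA values.

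The array reads the members with 92 probe sets in all, so the choice of 1 per gene could be checked. In a fit over 54613 probe sets, 15 of the 92 were called, 9 higher and 6 lower, beside 18.1% of all probe sets. With DMSO replicate 1, 2 or 3 left out the number called was 8, 4 and 7. The matching fits over genes called 22.4%, 20.5% and 19% of all genes. No member had probe sets called in opposite directions. Of the 41 members 28 had more than 1 probe set, and of the 9 called members among them 8 had all probe sets on one side of 0, the exception being ABCC4, with 1 of 4 at 0.04. The 5 probe sets of ABCC3 lay between -1.07 and -0.10, and 2 were called. In this fit the chosen probe sets of ABCA5, ABCC4 and ABCE1 were not called. A second probe set of ABCA5, at 0.44, was (limma over probe sets, adjusted p = 0.0356).

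**Figure D4:**
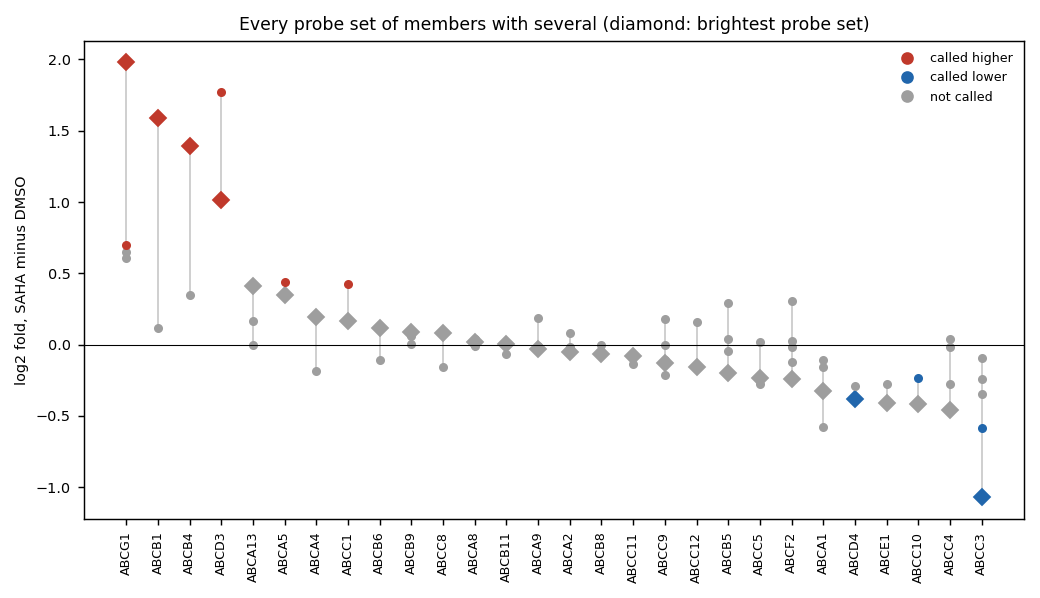
Log2 difference (SAHA minus DMSO) of each probe set of the 28 members with more than 1, on a vertical line per member, with the brightest as a diamond and colour for a call in the fit over all probe sets. The diamonds of ABCA5, ABCC4 and ABCE1 are grey, and no line holds calls of both colours.

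Genes that work with the transporters were read from the same fit. Efflux members of subfamily C export glutathione conjugates, and of 14 genes of glutathione synthesis and transfer 7 rose, 6 fell and 1 was not called. That is 92.9%, beside 29.6% of all genes, with a median of 0.20. All 14 lay above the array median in DMSO cells, a level at which 41.5% of all genes were called. The list was chosen with earlier results of these data known, so its share is no independent result. The transferases GSTA4, GSTM4 and GSTM3 rose by 1.45, 1.19 and 1.11, and the microsomal transferase MGST2 fell by 1.06. The transferases of the mu class are close in sequence, so their probe sets may share signal.

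Of 12 measured partners in cholesterol efflux, 3 rose, 3 fell and 6 were not called, a share of 50% beside 29.6% of all genes. LIPA, the lysosomal acid lipase, rose by 1.10, and SOAT1, which esterifies cholesterol for storage, fell by 0.43. The apolipoproteins APOC1 and APOA1 fell by 0.28 and 0.26. Their DMSO levels were 7.90 to 7.98 and 6.16 to 6.25.

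Of 12 measured factors that regulate ABC genes, 2 rose and none fell, a share of 16.7% beside 29.6% of all genes. PPARD, a fatty acid receptor, rose by 0.43, and NFE2L2, the NRF2 factor that drives antioxidant genes, rose by 0.41 (limma, adjusted p = 0.00669 and 0.0247). NR1H3, the liver X receptor alpha that acts on ABCG1 and ABCA1, read 7.84, 7.87 and 7.90 in DMSO and 7.87 on both SAHA arrays. NR1H2, the other liver X receptor, was on the list but had no probe set assigned to it alone and was not read. The 3 lists were chosen with earlier results of these data known, so their shares are no independent result. Taking them as 1, 21 of 38 genes were called (55.3%, beside 29.6% of all genes), 12 higher and 9 lower. Without DMSO replicate 2 or DMSO replicate 3 the number called was 13, in fits that called 20.5% and 19% of all genes.

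**Figure D5:**
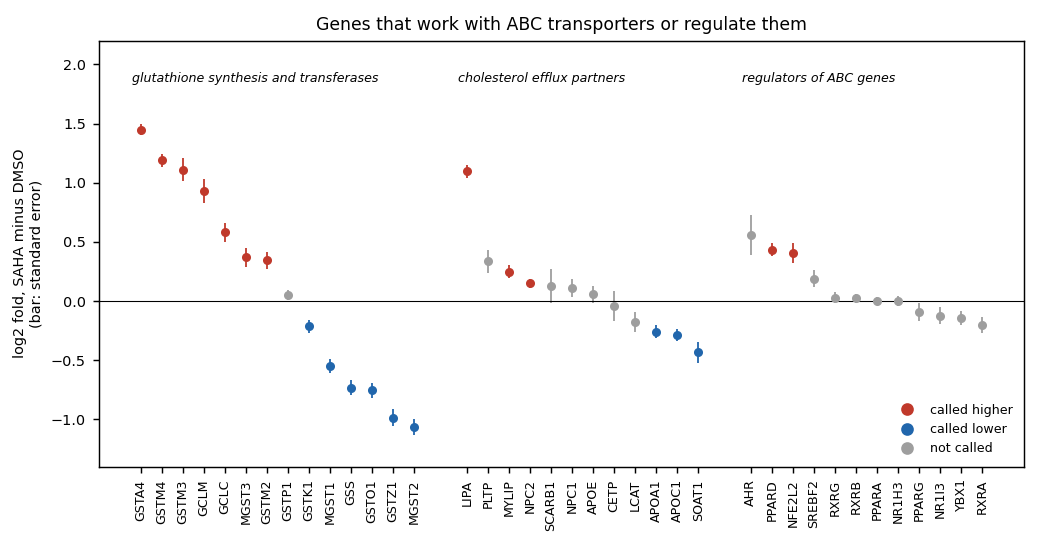
Log2 difference (SAHA minus DMSO) of the genes in the 3 related lists, with standard errors as bars and colour for calls. In the glutathione list 13 of 14 genes are called on both sides of 0, and among the regulators 2 of 12 are called.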

How the data were processed

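Total RNA of MDA-MB-231 cells was measured on 5 Affymetrix arrays, 3 DMSO and 2 SAHA. The authors deposited 1 intensity per probe set and array on a linear scale. The submitters' processing notes name RMA and R 2.12, so background correction, quantile normalization and summary over probes were done before deposit, and RMA sets arrays to a shared distribution. Log2 of the deposited intensity was taken and not normalized again. Probe sets were named from the platform annotation, which can be old: of 54675 probe sets, 62 were controls, 41091 had 1 gene, 1801 several and 11721 none, and 41037 of those with 1 gene were matched by gene ID to current RefSeq names. Each gene was read from its brightest probe set by mean over all arrays.

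Differences were tested with limma 3.58.1 (linear model with moderated variances, group as the single term) in R 4.3.3 on 19775 genes, with Benjamini-Hochberg adjustment over all of them and a threshold of 0.05; the fit had 3 residual and 1.62 prior degrees of freedom. The number of arrays limits the precision. A second fit covered 54613 probe sets without controls. On simulated data of the same size the test recovered 83% of 100 genes changed by 2-fold and 48% of as many changed by 1.41-fold, and 4.38% of its calls were false. Only 200 genes were changed there, with independent normal noise, while 5849 genes were called in the real data. The simulated shares may therefore not hold for the real data. Promoter windows were cut to the 250 bases before the start. Every called member and every efflux member is named; the called members that differ by at least 0.5, and all efflux members, are given on each array, as is ABCA1, chosen after its values were seen, like the regulator NR1H3; of a related list the called genes with the 4 largest differences are named. The members, roles and lists were chosen with earlier results of these data known. Alternatives covered scaling, dim and shared-sequence probe sets, averaging, the variance model, the threshold, the replicate block and each array in turn.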

Additional observations from a re-analysis of the deposited data

Results flagged for a closer look

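A probe set outside the comparisons gave a signal. One probe set is annotated to both ABCB4 and ABCB1 and was left out because members needed a probe set of their own. It read 5.47, 5.24 and 5.21 on the DMSO arrays and 6.96 and 6.20 on the SAHA arrays, so both SAHA arrays were above all DMSO arrays. It rose by 1.28 in the fit over probe sets (limma, adjusted p = 0.0349). It cannot be divided between the 2 genes.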

How the results depend on the processing

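In total 17 alternatives were run, 1 of them, the omission of genes with equal values on arrays of a group, chosen after seeing the data. Centred on the poly-A controls, 28 members were lower, 9 efflux members were called, the members' median was -0.42 and 71 probe sets were called, while all genes moved by a median of -0.40 and 80.5% were called; ABCA5 read -0.022 and ABCC1 -0.20. Centred on 60 ribosomal protein genes, 24 probe sets were called, and without probe sets of equal values 25. The matching fits over genes called 32.9% and 47.9% of all genes. Without shared-sequence probe sets 3 members were higher and 2 lower of 35, where 25% of all genes were called, and ABCC5 read 0.018. With probe sets averaged ABCB5 read 0.022 and the members' median was 0. At a threshold of 0.01, 3 members were higher and 1 lower, with 2 efflux members, 12 related genes and 4 probe sets called. At that threshold 16.8% of all genes were called. With 1 array left out, members higher ranged from 3 to 5, members lower from 1 to 5, efflux members from 1 (without SAHA replicate 2) to 3, related genes from 12 (without SAHA replicate 1) to 18 and probe sets from 4 (without DMSO replicate 2) to 8; ABCC2 ranged from -0.31 without SAHA replicate 2 to 0.19 without SAHA replicate 1, with 0.013 without DMSO replicate 3. The cause was not tested in any of these, apart from the fewer arrays or genes that the alternative itself sets. With DMSO replicate 1, 2 or 3 left out, 22.4%, 20.5% and 19% of all genes were called. A fit without a SAHA replicate rests on 1 SAHA array and has no scatter within SAHA. Its counts of calls are therefore not set against a share of all genes. Signal limits the dim members: 17 of 41 lay below the array median in DMSO.

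Replicate numbers 1 and 2 occur in both groups, but the labels do not say that a number marks a shared batch or day. With the replicate block, which uses 4 arrays, 3 members were higher and 1 lower, beside 13% of all genes called. In that fit 2 efflux members, 9 related genes and 0 probe sets of members were called, and ABCC2 read 0.013. Deviations of arrays with the same number correlated at 0.151 and -0.0669. With 2 SAHA arrays their deviations from the group mean mirror each other, so these values cannot decide whether a number marks a batch. The number was not taken as a pairing because the labels do not give one.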
